A study of Homo sapiens with 36 samples.

Results

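The subunits of RNA polymerase I, II and III were followed in K562 cells, a human erythroleukemia line, kept at 1%, 5% or 21% oxygen. Members were all genes of the expression table whose symbol begins with POLR1, POLR2 or POLR3 and holds no hyphen, plus ZNRD1, TWISTNB, CD3EAP and CRCP, the older symbols of further subunits. The rule gave 35 genes of 21950. Of these, 6 belong to Pol I alone, 11 to Pol II alone, 11 to Pol III alone and 7 to more than 1 polymerase. A mean of at least 1 FPKM (fragments counted per length of transcript and per total of mapped fragments) over all libraries was needed for a test, and 32 members had it. The other 3, POLR2J2, POLR2J3 and POLR2J4, are near-identical copies of POLR2J, and the split of fragments among the 4 genes is uncertain.

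RNA polymerase I makes the precursor of the large ribosomal RNAs in the nucleolus, Pol II makes messenger RNAs, and Pol III makes transfer RNAs and 5S ribosomal RNA. Each enzyme is built on a catalytic subunit and a second largest subunit that together form the active site, a small assembly core, a stalk and a small zinc-ribbon subunit. A set of small subunits is common to all 3 enzymes, and Pol I and Pol III carry their own initiation and termination subunits where Pol II relies on separate factors. Growing cells spend much of their transcription on Pol I and Pol III products, and the mRNAs measured here, for subunits of all 3 enzymes, are themselves Pol II products.

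The groups were 1%, 5% and 21% oxygen, each at 6 h, 24 h, 3 d and 6 d, with 3 libraries in each of the 12 groups. The same line was used in all groups, with no further treatment named; cells grew in DMEM in plates kept in an incubator of the given oxygen level and were passaged at 3 d. Oxygen level and incubator cannot be told apart. The labels do not say that replicates were separate cultures, so p-values measure only the spread between these libraries.

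The 10 erythroid and K562 markers, among them GATA1, TFRC and the embryonic and fetal globins, were above 1 FPKM in all 36 libraries. Among markers of other blood cells, CD3E and CD14 passed 1 FPKM in 0 libraries and MS4A1 in 1, while LYZ lay between 16.3 and 60.3 FPKM. Replicate 3 of 1% oxygen at 3 d, called the shallow library here, listed 7220 genes above 0, against 14512 to 19543 in the other 35. Of 3695 genes with a median above 20 FPKM it listed 429 at 0, against 0 to 7 elsewhere. It listed 7 tested members at 0 (CD3EAP, TWISTNB, ZNRD1, POLR1C, POLR2I, POLR3C and POLR3F), and no other library listed any at 0. Its depth relative to the median of the other libraries, read from genes detected in few libraries, was 0.0125, against 0.407 to 1.41 for the other 35. Results are therefore given with and without it. Replicate 3 of 21% oxygen at 24 h had the highest FPKM total, 1171415, against 632398 in the lowest of the 35, and a relative depth of 0.409. In bulk RNA, fewer cells making a transcript and less transcript per cell cannot be told apart.

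Subunit mRNAs were lower at 1% than at 21% oxygen, and the fall was deepest at 3 d. The class medians differed, but not in the same order at every time, and this difference was not tested. Averaged over the 4 times, 19 of 32 tested members fell at 1% against 21% oxygen and 0 rose (limma on log2 of FPKM plus 1, two-sided, Benjamini-Hochberg adjusted p under 0.05 over 10625 genes). Over all genes 19.0% fell and 12.4% rose. Without the shallow library 23 members fell and 0 rose, against 25.9% of all genes lower and 23.1% higher. The median log2 difference of the 32 members was -0.31, and -0.27 without the shallow library, against -0.07 and 0.00 for all genes.

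By class, 5 of 6 Pol I subunits, 5 of 8 Pol II subunits, 3 of 11 Pol III subunits and 6 of 7 shared subunits fell on average. With the shallow library left out the counts were 6, 5, 5 and 7. Over all genes 19.0% fell, or 25.9% without that library. The median log2 differences were -0.42 for Pol I, -0.28 for Pol II, -0.08 for Pol III and -0.51 for shared subunits. Rescaling each library to the same FPKM total (TPM) turned the Pol III median to 0.07 and left the other medians at -0.33, -0.13 and -0.36, with the all-gene median at 0.05. Medians without the shallow library were -0.38, -0.21, -0.15 and -0.32 for Pol I, Pol II, Pol III and shared subunits. Members of a class are not replicates, so the difference between classes is described by these counts and medians and was not tested.

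The time course showed when this happened. At 6 h, 0 of 32 members were called at 1% against 21% in either direction by limma, as were 0% of all genes. Leaving out the shallow library, the member counts were also 0, against 0.0753% of genes higher and 0.0188% lower. An unadjusted p under 0.05 was reached by 0 members and 351 of 10625 genes, and by 1 member and 1157 genes without that library. At 24 h, 10 members fell and POLR3E alone rose, against 9.66% of all genes lower and 6.56% higher. Without the shallow library 20 fell and 2 (POLR3E and POLR3D) rose, against 22.0% lower and 16.6% higher.

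At 3 d, 25 of 32 members fell and 0 rose at 1% against 21% oxygen, against 36.3% of all genes lower and 16.9% higher. The count was again 25 without the shallow library, where 28.5% of all genes were lower and 25.2% higher. The class medians at 3 d were -1.09 for Pol I, -0.54 for Pol II, -0.77 for Pol III and -1.09 for shared subunits, against -0.32 for all genes. With that library left out they were -1.17, -0.45, -0.49 and -0.83, against -0.01. All 6 Pol I subunits fell in both fits.

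At 6 d only POLR2G and POLR3G passed the test as lower at 1% than at 21%, against 5.04% of all genes. Without the shallow library 7 members fell, against 16.0% of all genes, and leaving out single libraries of the compared groups gave 1 to 4 (1 without replicate 1 or 2 of 21% or without replicate 2 or 3 of 1% oxygen, 4 without replicate 1 of 1%). A test of whether the 1% against 21% difference varied with time called 17 members, against 40.3% of all genes, and 24 against 63.3% without the shallow library. Leaving out replicate 1 of 1% oxygen at 3 d in place of the shallow library gave 26 members.

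**Figure D1:**
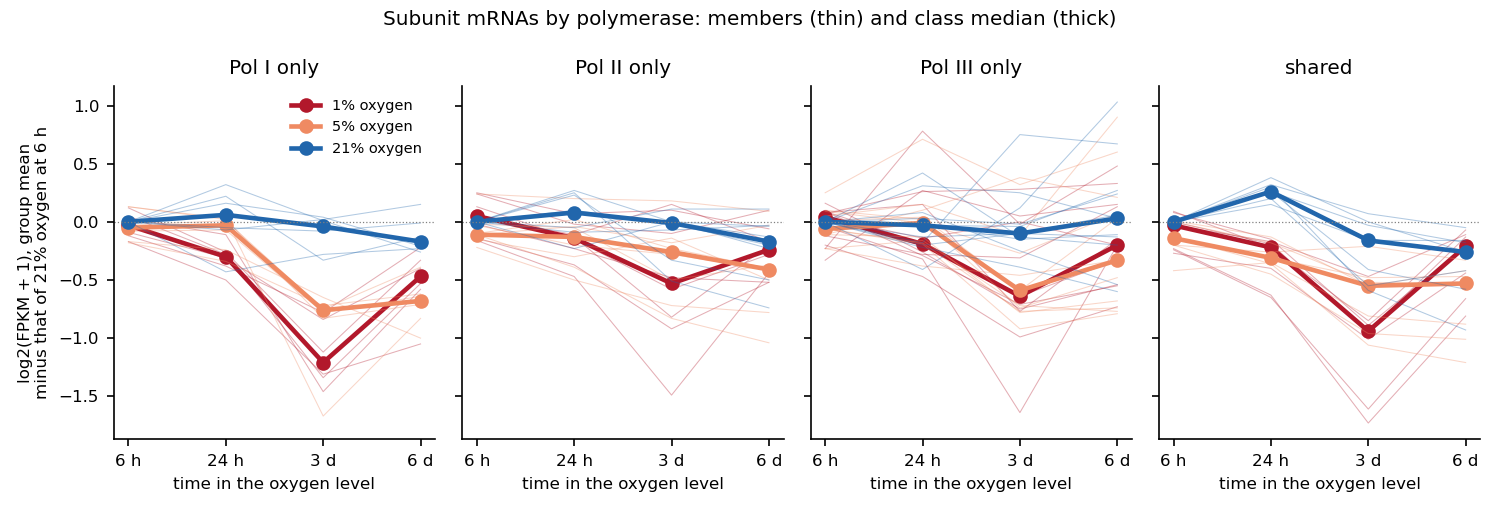
Log2(FPKM + 1) of each group minus that of 21% oxygen at 6 h (vertical axis) against time (horizontal axis), for the subunits of each class, without the shallow library; thin lines are single members, thick lines with points the class median, colours the oxygen level. The Pol I median at 3 d is -1.21 in 1%, -0.76 in 5% and -0.04 in 21% oxygen; at 24 h the direction of the Pol I, Pol II and Pol III differences between 1% and 21% turns under TPM scaling.

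The 3 d group of 1% oxygen also differed in other ways. The summed FPKM of 4 nuclear-retained RNAs (MALAT1, NEAT1, MEG3 and KCNQ1OT1) was 540 to 664 there, with 664 in the shallow library, against 115 to 145 in 21% oxygen at 3 d. All 3 of these RNAs that could be tested rose, with a median log2 difference of 2.08. Of the 10 K562 markers 6 rose and 0 fell at 3 d. Over all genes 16.9% rose and 36.3% fell at 3 d, or 25.2% and 28.5% without the shallow library. The part of nuclear RNA content and of cell state in the fall of the subunit mRNAs was not tested.

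Levels differed widely among subunits. Per length, in 21% oxygen at 6 h, POLR3K was highest with a mean of 259 FPKM and CD3EAP lowest of the tested members with 2.79.

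The largest subunits of the enzymes did not move alike at 3 d. POLR1A, the catalytic subunit of Pol I, had 8.01, 7.38 and 10 FPKM in 1% oxygen at 3 d, the last in the shallow library, against 19.9, 18.3 and 17.9 in 21% oxygen. The groups did not overlap, and the log2 difference was -1.06 ± 0.160 (SE, adjusted p = 4.49e-06, limma), or -1.18 without the shallow library. POLR2A, the catalytic subunit of Pol II, had 21.2, 21.5 and 17.3 FPKM against 19.3, 19.9 and 20.5 in the same groups. Its libraries overlapped, with a log2 difference of 0.00 ± 0.165 (adjusted p = 0.999) and 0.10 without the shallow library. At 24 h POLR1A went the other way, with 22.3, 21.2 and 19.8 FPKM in 1% against 18.5, 17.4 and 14.5 in 21% oxygen. That log2 difference of 0.32 was not called by limma (adjusted p = 0.206), and it was 0.22 without replicate 3 of 21% oxygen.

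POLR3A, the catalytic subunit of Pol III, had 8.95 and 9.12 FPKM in the first 2 libraries of 1% oxygen at 3 d and 20.1 in the shallow library, against 14.2, 14.4 and 12.5 in 21% oxygen. The shallow library decided the call. The log2 difference was -0.19 ± 0.195 with it (adjusted p = 0.414) and -0.55 ± 0.146 without it (adjusted p = 0.00239). The ratio of POLR1A to POLR2A, both per length, was 0.377, 0.343 and 0.580 in 1% oxygen at 3 d, against 1.03, 0.919 and 0.874 in 21% oxygen. At 6 h the ratio was 0.969, 1.05 and 0.907 in 1% and 1.27, 1.08 and 1.11 in 21% oxygen, without overlap. At 24 h it was 0.963, 0.993 and 1.06 in 1% and 0.908, 0.967 and 1.13 in 21% oxygen, so the libraries overlapped. At 6 d it was 0.825, 0.769 and 0.753 in 1% and 1.03, 1.02 and 0.952 in 21% oxygen, without overlap.

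Among the second largest subunits, that of Pol I again had the lowest log2 difference at 3 d in both fits. POLR1B of Pol I had 8.25 and 8.70 FPKM in 1% oxygen at 3 d and 31.0 in the shallow library, against 23.1, 24.7 and 22.3 in 21% oxygen. The first 2 libraries lay below every 21% library and the shallow one above them. The log2 difference was -0.78 ± 0.244 (adjusted p = 0.00973), and -1.36 ± 0.0912 without the shallow library (adjusted p = 8.13e-13). POLR2B of Pol II had 64.5, 59.9 and 40.8 FPKM against 67.9, 78.3 and 70.3. Its log2 difference of -0.41 ± 0.119 (adjusted p = 0.00596) became -0.21 ± 0.098 without the shallow library, with an adjusted p of 0.0729, so that library decided this call too.

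POLR3B of Pol III fell to 10.1, 9.31 and 8.21 FPKM in 1% oxygen at 3 d, against 12.4, 13.4 and 11.1 in 21% oxygen, without overlap. The log2 difference was -0.38 ± 0.106 (adjusted p = 0.00384) and -0.31 without the shallow library. In 21% oxygen itself POLR3B was lower at later times. It had 10.6, 9.54 and 11.4 FPKM at 6 d and 12.4, 13.4 and 11.1 at 3 d, against 16.5, 16.1 and 16.7 at 6 h. POLR1B did not follow that course: it had 24.7, 24.5 and 27.6 FPKM at 6 d in 21% oxygen, against 21.6, 23.0 and 24.3 at 6 h.

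**Figure D2:**
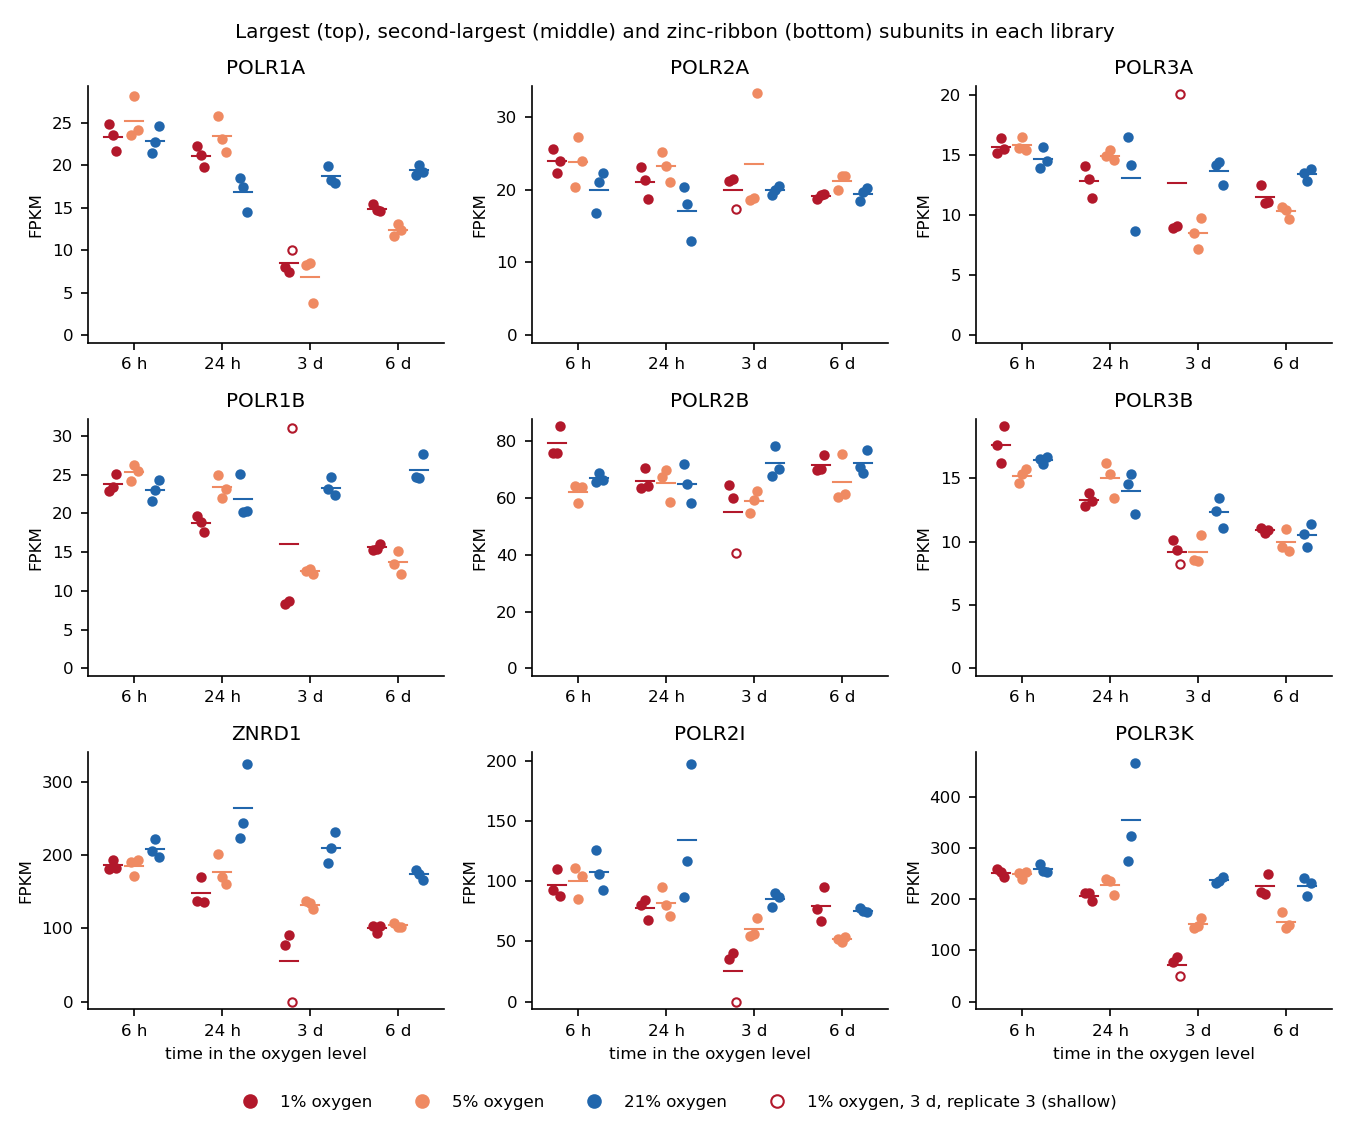
FPKM of the largest, second largest and zinc-ribbon subunits of the 3 polymerases (vertical axes, each from 0) in every library, against time, with 1%, 5% and 21% oxygen side by side; bars are means of 3 libraries and the open circle is the shallow library. POLR1A lies at 7.38 to 10 FPKM in 1% oxygen at 3 d and at 17.9 to 19.9 in 21%, while POLR2A lies at 17.3 to 21.5 in 1% and at 19.3 to 20.5 in 21%.

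The small zinc-ribbon subunits are homologous across the 3 enzymes, and ZNRD1 and POLR3K are known for the RNA cleavage activity of Pol I and Pol III. All 3 were among the mRNAs that fell most at 3 d. POLR3K had 76.7, 88.1 and 49.6 FPKM in 1% oxygen, against 232, 236 and 243 in 21% oxygen. With no overlap, its log2 difference was -1.75 ± 0.150 (adjusted p = 2.84e-10), or -1.52 without the shallow library. By 6 d POLR3K had 215, 211 and 249 FPKM in 1% oxygen, against 241, 206 and 232 in 21% oxygen, a log2 difference of -0.01 (adjusted p = 0.996).

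POLR2I, the zinc-ribbon subunit of Pol II, had 35 and 40.5 FPKM in 1% oxygen at 3 d and was listed at 0 in the shallow library, against 78.8, 90.5 and 86.9 in 21% oxygen. The log2 difference without that library was -1.16 ± 0.205 (adjusted p = 2.61e-05); with it the value was -2.91 (adjusted p = 0.00129). ZNRD1 had 76.7 and 91.3 FPKM and a listed 0, against 189, 210 and 232. Its log2 difference was -1.31 ± 0.121 without the shallow library (adjusted p = 4.31e-10) and -3.45 with it (adjusted p = 0.00127). At 6 d the ZNRD1 libraries did not overlap, with 103, 93.6 and 103 FPKM in 1% against 180, 174 and 166 in 21% oxygen. That difference of -0.79 had an adjusted p of 0.701 with the shallow library in the fit and 2.04e-06 without it. The transcript table lists ZNRD1 in 16 entries of 2 distinct transcripts, so its FPKM depends on how fragments were divided among copies and is uncertain. Both expressed entries were lower at 3 d, at 49.0 and 55.2 FPKM in 1% against 112, 143 and 143 in 21% oxygen for the more abundant one, and at 27.7 and 36.2 against 76.9, 66.1 and 89.5 for the other; the shallow library listed both at 0, and neither was tested.

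The other subunits of Pol I form the initiation and elongation dimer (POLR1E and CD3EAP) and the stalk (TWISTNB). POLR1E had 25.5, 26.3 and 28.9 FPKM in 1% oxygen at 3 d, against 58.2, 59.7 and 60.3 in 21% oxygen. It had the smallest SE of the class, and its log2 difference was -1.12 ± 0.0801 (adjusted p = 1.00e-11). The difference was already called at 24 h, where it was -0.42 (adjusted p = 8.36e-04), and not at 6 d, where it was -0.12. CD3EAP, the dimer partner, was the lowest of the tested members, with 1.33, 0.893 and a listed 0 FPKM at 3 d in 1%, against 2.47, 1.75 and 1.86 in 21% oxygen. Its log2 difference at 3 d was -0.88 (adjusted p = 4.83e-04) and -0.52 without the shallow library; the pseudocount of 1 holds such low values together. TWISTNB had 13.7 and 14.5 FPKM and a listed 0, against 23.3, 24.3 and 22.6, a log2 difference of -2.0 and of -0.69 ± 0.123 without the shallow library (adjusted p = 2.60e-05).

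In Pol II, the stalk subunits POLR2D and POLR2G had the smallest p-values of the class for the average over time. POLR2D had 64.0, 61.9 and 45.2 FPKM in 1% oxygen at 3 d, against 109, 113 and 114 in 21% oxygen. The log2 difference was -0.98 ± 0.0900 (adjusted p = 1.14e-09), or -0.82 without the shallow library. POLR2G had 162, 158 and 146 FPKM, against 211, 226 and 237, a log2 difference of -0.53 (adjusted p = 3.27e-05). At 6 d POLR2G remained lower, with 149, 159 and 160 FPKM in 1% and 207, 186 and 179 in 21% oxygen (log2 difference -0.29, adjusted p = 0.0445). POLR2C and POLR2J, which form the assembly core, had log2 differences of -1.18 and -0.55 at 3 d, and of -0.56 and -0.41 without the shallow library. POLR2J is uncertain because of its copies.

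POLR2M, which encodes a factor that binds Pol II, did not go with the rest. It had 23.0, 21.7 and 20.5 FPKM in 1% oxygen at 3 d, against 17.7, 19.6 and 19.9 in 21% oxygen. The libraries did not overlap, but the log2 difference of 0.18 did not pass the test (adjusted p = 0.134). It was also the 1 member called lower at 6 d than at 3 d in 1% oxygen (3 members under TPM and 3 under quantile normalization), with 16.3, 18.9 and 18.1 FPKM at 6 d (log2 difference -0.28, adjusted p = 0.0263).

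Pol III has alternative subunits, POLR3G and POLR3GL, at the same place in its initiation trimer; POLR3G is known from stem and tumour cells and POLR3GL from most tissues. POLR3G was lower at 1% than at 21% oxygen on average, by a log2 difference of -0.63 ± 0.0736 (adjusted p = 1.64e-07), and POLR3GL was not called, at -0.01 ± 0.101 (adjusted p = 0.936). Their difference was not tested. At 6 d POLR3G had 8.69, 10.3 and 10.4 FPKM in 1% oxygen, against 19.9, 19.9 and 20.3 in 21% oxygen. This gap, a log2 difference of -0.97 ± 0.147 (adjusted p = 2.80e-05), was the largest of any member at 6 d. POLR3GL had 36.4, 42.6 and 42.2 FPKM in 1% and 28.9, 32.5 and 36.9 in 21% oxygen at 6 d, with overlap and a log2 difference of 0.30 (adjusted p = 0.459).

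The ratio of POLR3G to POLR3GL was lower in every 1% and 5% library than in every 21% library at 6 d. It was 0.238, 0.241 and 0.247 in 1%, 0.265, 0.290 and 0.214 in 5%, and 0.688, 0.612 and 0.551 in 21% oxygen. At 6 h the libraries overlapped, at 0.430, 0.358 and 0.523 in 1%, 0.518, 0.463 and 0.471 in 5%, and 0.484, 0.475 and 0.641 in 21% oxygen. At 3 d the first 2 libraries of 1% oxygen had 0.222 and 0.190 and the shallow one 0.639, against 0.457, 0.486 and 0.372 in 21% oxygen.

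**Figure D3:**
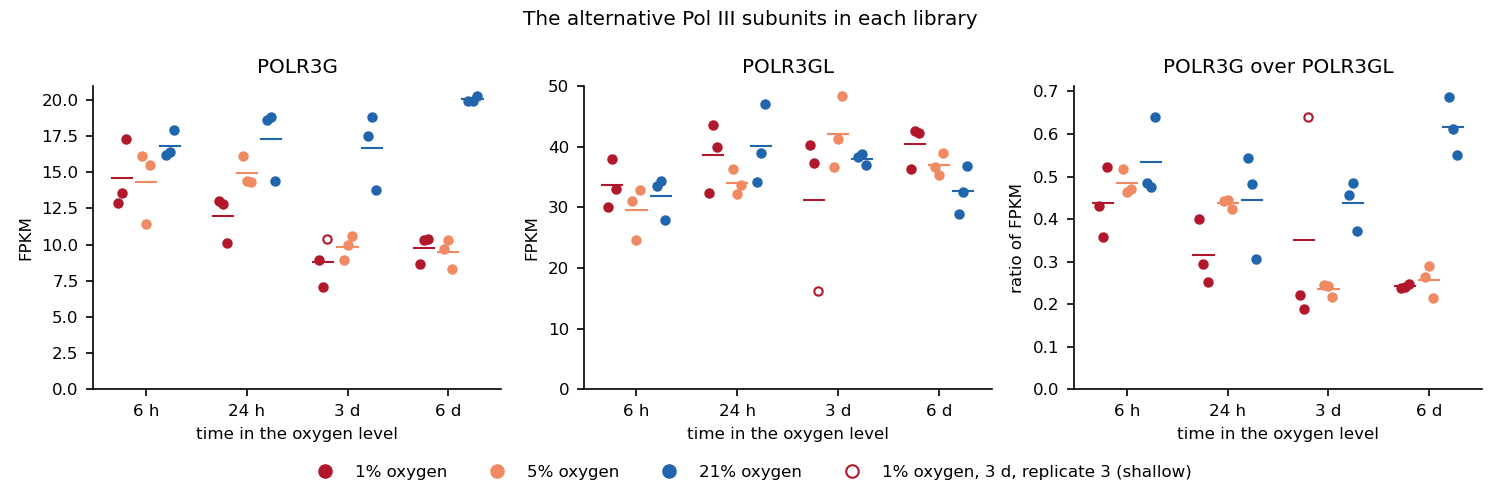
FPKM of POLR3G and of POLR3GL and the ratio of their FPKM (vertical axes from 0) in every library against time, with 1%, 5% and 21% oxygen side by side; bars are means of 3 libraries and the open circle is the shallow library. At 6 d the ratio is 0.238 to 0.247 in 1% oxygen, 0.214 to 0.290 in 5% and 0.551 to 0.688 in 21% oxygen.

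POLR3E, part of the Pol III dimer that acts in initiation and termination, moved in opposite directions at different times. At 24 h it rose to 33.6, 33.4 and 33.1 FPKM in 1% oxygen, against 20.2, 15.4 and 14.9 in 21% oxygen (log2 difference 0.96 ± 0.208, adjusted p = 0.00241). At 3 d it fell to 17.4, 20 and 18.8 FPKM in 1%, against 36.5, 34.9 and 27.4 in 21% oxygen (log2 difference -0.77 ± 0.208, adjusted p = 0.00313). The difference varied with time (adjusted p = 3.30e-04). The 21% libraries themselves changed: POLR3E rose there by a log2 difference of 0.75 at 3 d (adjusted p = 0.0329) and 0.67 at 6 d (adjusted p = 0.0356), with 12.9, 20.7 and 25.5 FPKM at 6 h. Of the other Pol III subunits, POLR3C also fell at 3 d in both fits, POLR3F only in the fit with the shallow library, which listed it at 0, and POLR3D and CRCP in neither.

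At 24 h, 5 of 7 shared subunits were called lower at 1% than at 21% oxygen, against 9.66% of all genes. Without the shallow library 7 of 7 were called lower, against 22.0%. Their median log2 difference was -0.53, with a range from -0.94 to -0.34. Replicate 3 of 21% oxygen at 24 h bore on this. Without it 3 of 7 were called lower, against 346 of 10625 genes, the median was -0.34 and POLR2L had -0.59. POLR2L, common to the 3 enzymes, had 134, 125 and 116 FPKM in 1% oxygen at 24 h, against 166, 213 and 387 in 21% oxygen, the last in replicate 3 (log2 difference -0.94 ± 0.181, adjusted p = 9.29e-04). POLR2F, likewise common to all 3, had 35.6, 44.1 and 37.9 FPKM, against 51.9, 74.5 and 104 (log2 difference -0.90, adjusted p = 0.00110). At 3 d POLR2L had 57.9, 58.0 and 46.0 FPKM in 1%, against 123, 126 and 136 in 21% oxygen, and its log2 difference was -1.24 (adjusted p = 2.76e-06). By 6 d 0 of the 7 shared subunits were called in either fit, and their median was 0.03. Relative to 21% oxygen at 6 h, their median at 6 d was -0.21 in 1% and -0.26 in 21% oxygen. Over all genes 5.04% were lower at 6 d, or 16.0% without the shallow library.

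Scaling and 1 library bore on the 24 h values. Under TPM the median of all genes at 24 h was 0.39, in place of 0.00, and the medians of Pol I, Pol II and Pol III subunits became positive, at 0.07, 0.23 and 0.40, while that of shared subunits stayed at -0.08. Relative to the all-gene median, Pol I subunits lay at -0.32 under TPM and -0.38 in the main scale, and shared subunits at -0.47 and -0.53. TPM divides each library by 1 constant, so these relative values could hardly differ and are no check. Under quantile normalization the relative medians were -0.26 for Pol I, -0.04 for Pol II, -0.05 for Pol III and -0.22 for shared subunits. Under TPM 7 members rose and 3 fell at 24 h, against 21.5% of all genes higher and 0.828% lower. Leaving out replicate 3 of 21% oxygen at 24 h gave 8 lower members and 1 higher, with 346 lower and 298 higher among the 10625 genes.

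The 24 h difference also went with transcript length. Across 31 members with a length (from GENCODE 29, for the most abundant transcript), Spearman's rho between length and the 1% against 21% log2 difference was 0.68 at 24 h, and it was 0.39 across 9901 genes. The 7 members under 1000 bases had a median difference of -0.62 and the 13 over 3000 bases one of -0.03; all genes of those lengths had medians of -0.40 and 0.13. Leaving out replicate 3 of 21% oxygen at 24 h lowered rho to 0.46 for members and 0.27 for all genes. At 3 d, without the shallow library, rho was 0.04 for members and 0.19 for all genes, and the medians of members under 1000 and over 3000 bases were -0.54 and -0.69, against -0.18 and 0.10 for all genes. Genes within libraries are not independent, and the part of length in the 24 h result was not tested.

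**Figure D4:**
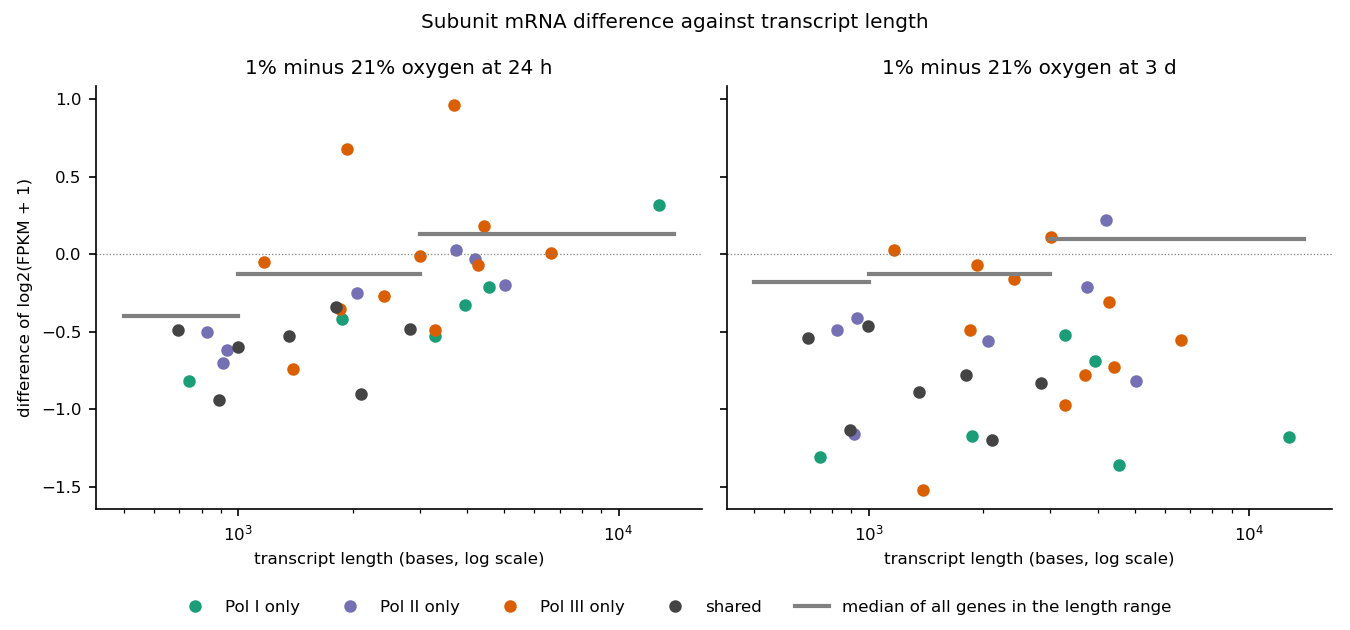
Difference of log2(FPKM + 1) between 1% and 21% oxygen (vertical axis) against transcript length on a log scale (horizontal axis) for 31 members at 24 h and at 3 d, without the shallow library; grey bars are the medians of all genes in 3 length ranges. At 24 h members and all genes are both lower the shorter the transcript, with Spearman's rho of 0.68 and 0.39, and at 3 d rho is 0.04 and 0.19.

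Cells at 5% oxygen were compared with the same 21% libraries, so the 1% and 5% comparisons are not independent. At 6 h, 0 members were called in either direction and in either fit by limma, as were 0% of genes. An unadjusted p under 0.05 was reached by 0 members and 280 of 10625 genes, or by 1 member and 1027 genes without the shallow library. Averaged over time, 14 members fell and POLR2A alone rose at 5% against 21% oxygen, against 15.0% of all genes lower and 9.21% higher. With the spread estimated without the shallow library, which is not in either group, 27 fell and 1 rose, against 30.2% and 18.2%. POLR2A averaged a log2 difference of 0.24 (adjusted p = 0.0290). Its 3 d libraries in 5% oxygen held 18.5, 18.9 and 33.2 FPKM, against 19.3, 19.9 and 20.5 in 21% oxygen, so 1 library stood apart from the other 2. The POLR2A log2 difference was largest at 24 h, at 0.44, and was 0.26 there without replicate 3 of 21% oxygen, which held 12.9 FPKM.

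At 24 h, 8 members fell and POLR3E rose in 5% oxygen, against 6.99% of all genes lower and 2.39% higher; without the shallow library 15 fell and 3 rose, against 18.7% and 9.51%. Under TPM the direction turned, with 8 members higher and 0 lower, against 16.1% of all genes higher and 0.113% lower. These counts rested on replicate 3 of 21% oxygen at 24 h: without it 2 members fell and 0 rose, and among the 10625 genes 40 fell and 7 rose. Leaving out replicate 2 or 3 of 5% oxygen at 24 h left 4 and 2 called members. At 3 d, 12 members fell, against 13.6% of all genes, and 21 against 29.2% without the shallow library. At 6 d, 7 fell, against 7.59%, and 17 against 21.6%; leaving out 5% replicate 2 or replicate 3 of that time gave 4 and 3 calls. The summed nuclear-retained RNAs were 147 to 263 FPKM in 5% against 115 to 145 in 21% oxygen at 3 d, and 263 to 377 against 141 to 173 at 6 d; their part in these falls was not tested. POLR1A had 8.24, 8.48 and 3.84 FPKM in 5% oxygen at 3 d, against 19.9, 18.3 and 17.9 in 21% oxygen. This log2 difference of -1.39 (adjusted p = 1.74e-07, limma) was the largest fall of any member at 5% and 3 d. Replicate 3, with 3.84, is the same library in which POLR2A stood apart at 33.2 FPKM. POLR1B had 13.5, 15.2 and 12.2 FPKM in 5% oxygen at 6 d, against 24.7, 24.5 and 27.6 in 21% oxygen (log2 difference -0.86, adjusted p = 0.0145).

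The class medians in 5% oxygen were -0.38 for Pol I, -0.21 for Pol II, -0.17 for Pol III and -0.33 for shared subunits, averaged over time, against -0.04 for all genes. Under TPM they were -0.24, -0.07, -0.04 and -0.19, against 0.08 for all genes. At 6 d the shared median was -0.30 in 5% oxygen. There 1 of 7 shared subunits was called, or 4 without the shallow library, against 7.59% and 21.6% of all genes lower. Set directly against each other and averaged over time, 1% and 5% oxygen gave 0 called members in either direction. Over all genes 2.89% were higher and 1.52% lower at 1%. An unadjusted p under 0.05 was reached by 5 members and by 1823 of 10625 genes. Leaving out replicate 1 of 5% oxygen at 24 h, or replicate 1 of 1% oxygen at 3 d, gave 1 called member. Without the shallow library POLR2B and POLR2M were higher and POLR1B and ZNRD1 lower at 1% than at 5%, against 10.1% and 4.02% of all genes.

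**Figure D5:**
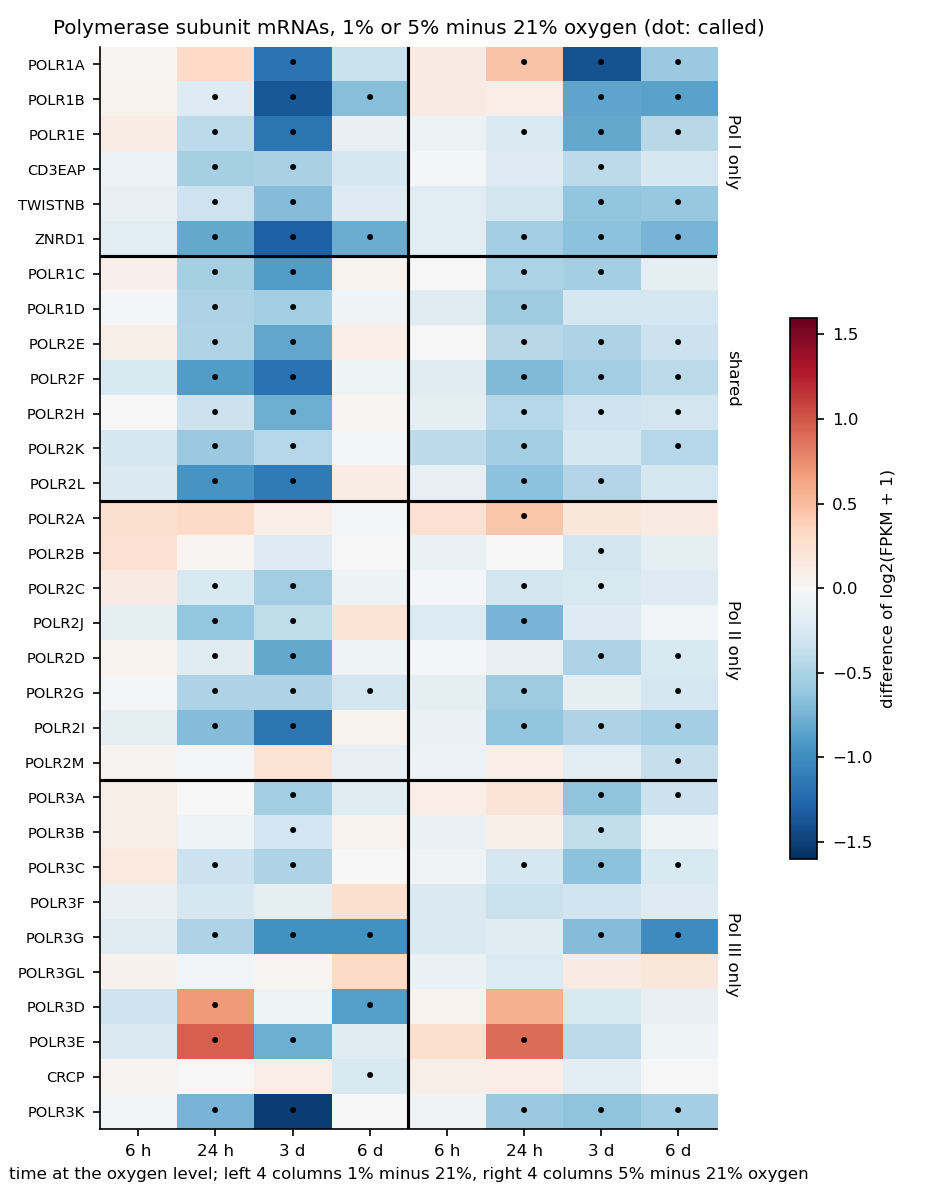
Difference of log2(FPKM + 1) from 21% oxygen (colour) for 31 of the 32 tested members (rows, by class) at 1% oxygen (left 4 columns) and 5% oxygen (right 4 columns) at each time, fitted without the shallow library; dots mark an adjusted p under 0.05 in limma. All 6 Pol I subunits are marked at 3 d in both oxygen levels, POLR3GL in no column, and under TPM scaling the 24 h medians of Pol I and Pol II turn in both oxygen levels and that of Pol III in 1% oxygen.

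Within 21% oxygen, fewer members changed with time. At 3 d against 6 h, POLR3E rose and POLR2J and POLR3B fell, against 3.42% of all genes higher and 1.19% lower; without the shallow library 1 rose and 4 fell, against 11.8% and 6.21%. These 3 calls became 0 without replicate 1 or 2 at 6 h or replicate 1 at 3 d, and 1 without replicate 2 at 3 d. At 6 d against 6 h, POLR3E rose and 4 members fell, against 7.89% and 3.24%; without the shallow library 2 rose and 8 fell, against 17.5% and 11.7%. The 5 calls became 3 without replicate 1 or 2 at 6 h, or without any 1 of the 6 d libraries. The largest fall was that of POLR2L, with 99.8, 109 and 96.6 FPKM at 6 d and 218, 199 and 169 at 6 h (log2 difference -0.93, adjusted p = 0.00104).

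In 1% oxygen the mRNAs were higher again after the passage. At 6 d against 3 d, 21 members rose and POLR2M fell, against 34.1% of all genes higher and 14.8% lower. Without the shallow library 19 rose and 1 fell, against 23.7% and 20.9%. The class medians without that library were 0.68 for Pol I, 0.25 for Pol II, 0.26 for Pol III and 0.78 for shared subunits, against 0.02 for all genes. The summed nuclear-retained RNAs of these groups were 166 to 213 FPKM at 6 d and 540 to 664 at 3 d.

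Other genes of the 3 transcription machineries were read from lists chosen with earlier results of these data known, and their counts stand beside 19.0% of all genes lower and 12.4% higher on average. Of 21 factors that assemble polymerases or carry them into the nucleus, 11 fell and 0 rose at 1% against 21% oxygen averaged over time. Without the shallow library 15 fell, against 25.9% of all genes lower and 23.1% higher. RUVBL2, an ATPase of the R2TP chaperone complex, had 129, 154 and 98.5 FPKM at 3 d in 1%, against 368, 358 and 400 in 21% oxygen, a log2 difference of -1.58 (adjusted p = 3.15e-12). Its partner RUVBL1 had 51.6, 50.8 and 50.8 FPKM, against 118, 125 and 134 (log2 difference -1.28, adjusted p = 9.55e-13). HSP90AA1, the inducible cytosolic HSP90, averaged -0.32 over time (adjusted p = 4.83e-08).

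Of 9 Pol I initiation and termination factors 2 rose and 1 (TAF1A, of the promoter selectivity factor) fell on average, with a median of -0.20. UBTF, which binds ribosomal gene promoters, was called at 3 d, with 7.32, 8.42 and 3.66 FPKM in 1% against 13.5, 12.9 and 13.3 in 21% oxygen (log2 difference -0.99, adjusted p = 1.11e-05). RRN3, which recruits Pol I, was called at 3 d (log2 difference -1.17, adjusted p = 0.0262) but not without the shallow library, which listed it at 0 (-0.12, adjusted p = 0.560). Of 18 Pol III factors 1 rose and 3 fell, with a median of -0.12. SNAPC1, of the complex that serves small nuclear RNA promoters, rose at 3 d to 13.0, 13.9 and 13.1 FPKM in 1%, against 6.72, 6.90 and 6.73 in 21% oxygen. BRF1 and MAF1, a Pol III initiation factor and a Pol III repressor, were not called on average (-0.14, adjusted p = 0.342, and 0.31, adjusted p = 0.242). At 3 d MAF1 was called higher, at 1.15 (adjusted p = 0.0191), but not without the shallow library, at 0.92 (adjusted p = 0.0724).

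Of 30 tested Pol II general transcription factors 7 fell and 0 rose, with a median of -0.17, against -0.07 for all genes. GTF2E2, of TFIIE, had 9.49, 8.57 and 9.59 FPKM at 6 d in 1%, against 35.2, 33.0 and 31.2 in 21% oxygen. The 21% libraries themselves were higher than at 6 h, where they had 13.9, 17.2 and 17.9 FPKM. At 6 h the 1% libraries had 17.5, 18.6 and 16.1 FPKM. Of 29 pausing and elongation factors 5 rose and 7 fell (median -0.11), and of 29 Mediator subunits 1 rose and 3 fell (median -0.09). Of 6 genes of mitochondrial transcription 3 fell and 0 rose (median -0.36), with TFB1M at 6.75, 7.94 and 6.16 FPKM at 3 d in 1% against 18.4, 19.7 and 21.8 in 21% oxygen.

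MYC, a transcription factor known to raise Pol I and Pol III output, and its partner MAX both fell on average. MYC had 79.2, 76.2 and 88.7 FPKM at 3 d in 1%, against 131, 133 and 134 in 21% oxygen, a log2 difference of -0.70 (adjusted p = 2.45e-08). The letters CACGTG, the E-box that MYC and MAX are known to bind, were sought in promoters from RefSeq (GRCh38.p14; 250 bases before to 50 after the start site), of which 30 matched 24 of the 35 members. The letters read the same on both strands. They stood in promoters of 4 members, 16.7% of the 24, against 8.77% of 27305 genes. The 4 windows are shown because they are the places where a member's promoter holds the letters, which are in capitals, 5′ to 3′ on the gene's strand:
CD3EAP (chr19:45406592-45406677, plus strand, first letter 12 bases before the start): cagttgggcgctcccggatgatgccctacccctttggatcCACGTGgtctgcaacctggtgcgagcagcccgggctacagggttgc
POLR3A (chr10:78029505-78029590, minus strand, 35 bases before): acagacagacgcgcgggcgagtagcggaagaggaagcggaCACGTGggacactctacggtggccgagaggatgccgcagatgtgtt
POLR3C (chr1:145823964-145824049, plus strand, 196 bases before): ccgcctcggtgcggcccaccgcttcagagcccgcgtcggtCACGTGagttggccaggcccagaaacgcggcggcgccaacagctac
POLR3E (chr16:22297368-22297453, plus strand, 1 base before): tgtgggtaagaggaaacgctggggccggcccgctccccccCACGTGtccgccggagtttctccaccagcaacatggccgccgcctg

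Averaged over time at 1% against 21% oxygen, CD3EAP fell by 0.44 on the log2 scale (adjusted p = 7.37e-04), while POLR3A, POLR3C and POLR3E had -0.07, -0.58 and -0.06 and were not called. Without the shallow library, which listed POLR3C at 0, POLR3A (-0.16, adjusted p = 0.0474) and POLR3C (-0.17, adjusted p = 0.00698) were called lower as well, and POLR3E was not. POLR3E rose at 24 h and fell at 3 d. The promoters of POLR1A, POLR1B, ZNRD1 and POLR3K, whose mRNAs fell at 3 d, do not hold these letters in the window. Nor do those of POLR2A, POLR2M and POLR3GL, which were not called at 3 d in the fit with all libraries. A match describes the sequence and was not read as binding. The part of MYC and MAX in these differences was not tested.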

How the data were processed

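PolyA-selected RNA of K562 cells was sequenced by a Smart-seq2 protocol, per the labels. The deposited values are FPKM per gene and per transcript, made by the authors with TopHat, Cufflinks and Cuffnorm, per the submitters' processing notes; no version, genome build or gene annotation was given in the sources used here. The files hold no counts, so absolute depth is unknown and no counting error is given; relative depth was estimated from genes above 0 in few libraries. Groups came from the labels.

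FPKM were used as log2(FPKM + 1). Genes with a mean of at least 1 FPKM over all 36 libraries (10625 of 21950) were fitted in 1 limma model (limma 3.58.1, R 4.3.3) with 12 group means and a trended prior, 24 residual degrees of freedom, two-sided tests and Benjamini-Hochberg adjustment over all genes. The model was tested on simulated normal values with means and spreads taken without the shallow library. That test therefore does not cover the zeros of that library in the main fit. A second fit left out the shallow library. A fold change of a low gene is understated on this scale.

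The members, the lists and the rule for named genes were chosen with earlier results of these data known. Named members are the largest, second largest and zinc-ribbon subunits, POLR3G and POLR3GL, the 2 with the smallest p in each class, and the largest and contrary changes of each comparison; POLR1C, POLR2C, TWISTNB, POLR3C, POLR3D, POLR3F and CRCP are named beyond this rule, chosen after their values were seen. The values of 1 tested member, which is in the counts and medians, are not reported here. From each list of other genes, up to 3 with the smallest p are eligible, with MYC, MAF1, RRN3, UBTF and BRF1. Alternatives were another pseudocount, other filters, TPM, quantile normalization, array weights, a replicate block, the compared groups alone and leaving out each library. Plots used matplotlib 3.10.9 in Python 3.11.15.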

Additional observations from a re-analysis of the deposited data

Results flagged for a closer look

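The difference between 1% and 21% oxygen in a subunit mRNA changed with time for 17 of 32 tested members by limma's F test, which compares the differences at the 4 times, and 40.3% of all genes tested did so. Among members named by the rule it varied for POLR1E (adjusted p = 1.55e-08), POLR3K (4.44e-07), POLR2D (1.08e-06), POLR1A (0.000146), POLR3E (0.00033), POLR2L (0.000372), POLR2J (0.00194), POLR2F (0.0039), POLR2G (0.00809), POLR3G (0.0146), POLR2B (0.021) and POLR3B (0.0409). POLR2C (0.0238) and POLR3D (0.0356), named beyond that rule, varied too. Called differences had opposite signs for POLR3E, 0.96 at 24 h and -0.77 at 3 d, and, without the shallow library, also for POLR3D, 0.68 at 24 h and -0.88 at 6 d.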

How the results depend on the processing

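Counts of called members, in either direction, depended on the setting, and so did the shares of all genes called. All-gene shares are given here for some settings, and the other counts stand without one. For 1% against 21% oxygen, the 19 on average became 11 under TPM, against 7.07% of all genes lower and 18.6% higher. The 11 at 24 h became 22 without the shallow library, 23 with array weights and 7 with only the compared groups fitted. All genes at 24 h went from 9.66% lower and 6.56% higher to 22.0% and 16.6% without the shallow library. The 25 at 3 d became 9 with only those groups. The 2 at 6 d became 1 without a filter, under TPM and with the replicate block, 6 with only those groups, 7 without the shallow library and 13 with array weights, and 1 to 4 leaving out single libraries. Of all genes 5.04% were lower at 6 d in the main fit, 3.34% under TPM, 4.98% with the replicate block and 16.0% without the shallow library. The 17 varying with time became 27 with array weights, and 15 to 26 leaving out single libraries.

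For 5% against 21% oxygen, the 15 on average became 8 under TPM, 28 without the shallow library, 28 with array weights and 26 with only those groups. The 9 at 24 h, 8 of them lower, became 8 under TPM with all of them higher, 2 under quantile normalization, 18, 21 and 0 under the last 3 settings, and 2 to 10 leaving out single libraries. The 12 at 3 d became 21, 25 and 21. The 7 at 6 d became 2 under TPM, then 17, 23 and 21, and 3 to 7 leaving out single libraries. Over all genes 4.81% were lower and 12.9% higher on average under TPM, and 30.2% and 18.2% without the shallow library. At 24 h 0.113% were lower and 16.1% higher under TPM, 0.885% and 1.87% under quantile normalization, and 18.7% and 9.51% without that library. At 3 d 29.2% were lower without that library. At 6 d 2.44% were lower under TPM, and 21.6% without that library.

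The 0 between 1% and 5% became 2 under quantile normalization, 4 without the shallow library and 6 with array weights, and 0 to 4 leaving out single libraries. Over all genes 3.61% were higher and 3.85% lower at 1% under quantile normalization, and 10.1% and 4.02% without the shallow library. In 21% oxygen against 6 h, the 0 at 24 h became 1 without the shallow library and 2 with array weights. The 3 at 3 d became 5 and 9, and 0 to 2 leaving out single libraries. The 5 at 6 d became 3 without a filter, 10 without the shallow library, 17 with array weights and 14 with only those groups, and 3 to 5 leaving out single libraries. The 22 at 6 d against 3 d in 1% oxygen became 4 with only those groups. With only the compared groups fitted, fewer libraries estimate the spread, and the shallow library is also out where its group is not compared; the cause of these changes was not tested.

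Named members already called for 1% against 21% oxygen on average or at 3 d gave 29 pairs of member and comparison. Of their 259 values under other settings, 231 kept direction and call, 28 lost the call and 0 reversed. Of 408 values leaving out 1 library, 385 kept both, 23 lost the call and 0 reversed. The 24 h comparisons, where class medians turned under TPM, were not part of this tally. Replicate numbers did not pair the samples: same-numbered libraries deviated together with correlations of -0.30 to 0.12, over 0.1 in 1 of 36 pairs. With the replicate block the counts for 1% against 21% oxygen were 18 on average, 11 at 24 h, 25 at 3 d and 16 varying with time. Over all genes that fit had 18.7% lower and 12.2% higher on average, 9.26% and 6.37% at 24 h, and 36.2% and 16.7% at 3 d.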
